A study of Bos taurus with 31 samples.

Results

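The sinusoidal and vascular endothelial genes are a list of 10 genes that mark the cells lining the liver's blood vessels (*STAB1*, *STAB2*, *LYVE1*, *OIT3*, *PECAM1*, *CDH5*, *EMCN*, *KDR*, *TEK* and *ENG*). They were found by their gene symbol in the raw count table of bovine liver, which holds 24616 genes. A row was found for 9 of the 10, and all 9 passed the filter on low counts. *OIT3* matched no symbol of the table and is not analysed here. Liver biopsies of 31 lactating German Holstein cows taken in week 16 of a feeding trial had been sequenced. The cows received feed with glyphosate residues (GLY) or control feed (CON), combined with a high (HC, 60% of dry matter) or a low (LC, 30%) concentrate feed proportion (CFP). This gave the feeding groups CONHC, CONLC and GLYHC with 8 cows each and GLYLC with 7 cows. Each cow belongs to 1 group, so cows are the replicates. The reads assigned to genes numbered 11675775 to 36675542 per cow. Each of the 9 genes was read in every cow, with the fewest reads for *EMCN* (50 to 230 per cow) and the most for *KDR* (1036 to 3145) and *STAB2* (934 to 3336).

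The sinusoids of the liver are lined by a specialised endothelium whose cells are perforated by open pores. These cells clear hyaluronan, modified proteins and other waste from the blood through scavenger receptors, and they release factors that act on the neighbouring hepatocytes and stellate cells. Endothelium of the portal and central vessels shares the junction proteins and growth factor receptors of blood vessels elsewhere but holds little of the scavenger receptors. RNA of a whole biopsy was measured, and in such samples fewer cells of a type and less RNA per cell cannot be told apart. Other endothelial genes were read beside the members. Of 19 further genes known from the sinusoidal endothelium that were tested, 17 had a mean of at least 1 CPM (reads per 1000000 assigned reads of the cow, scaled by TMM factors), and *WNT9B* and *CTSL* were the exceptions. Of 28 genes known from endothelium in general, 20 reached this level.

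None of the 9 endothelial genes differed between feeding groups at the thresholds used (edgeR, unadjusted p under 0.05 and adjusted p under 0.1), in any of 7 comparisons. Their group means lay close together. The highest group mean was between 1.02 times (*TEK*) and 1.23 times (*ENG*) the lowest, whereas the highest cow was between 1.80 times (*KDR*) and 3.73 times (*EMCN*) the lowest cow. In all 54 pairs of groups over the 9 genes the ranges of the cows overlapped, as they did for nearly all genes tested, of whose 95496 pairs 0.0283% did not overlap. Ordered by their means, 27 pairs of neighbouring groups could be compared, and 26 of these differed by less than the smaller of their SD. The exception was *LYVE1* in CONLC and GLYHC.

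**Figure D1:**
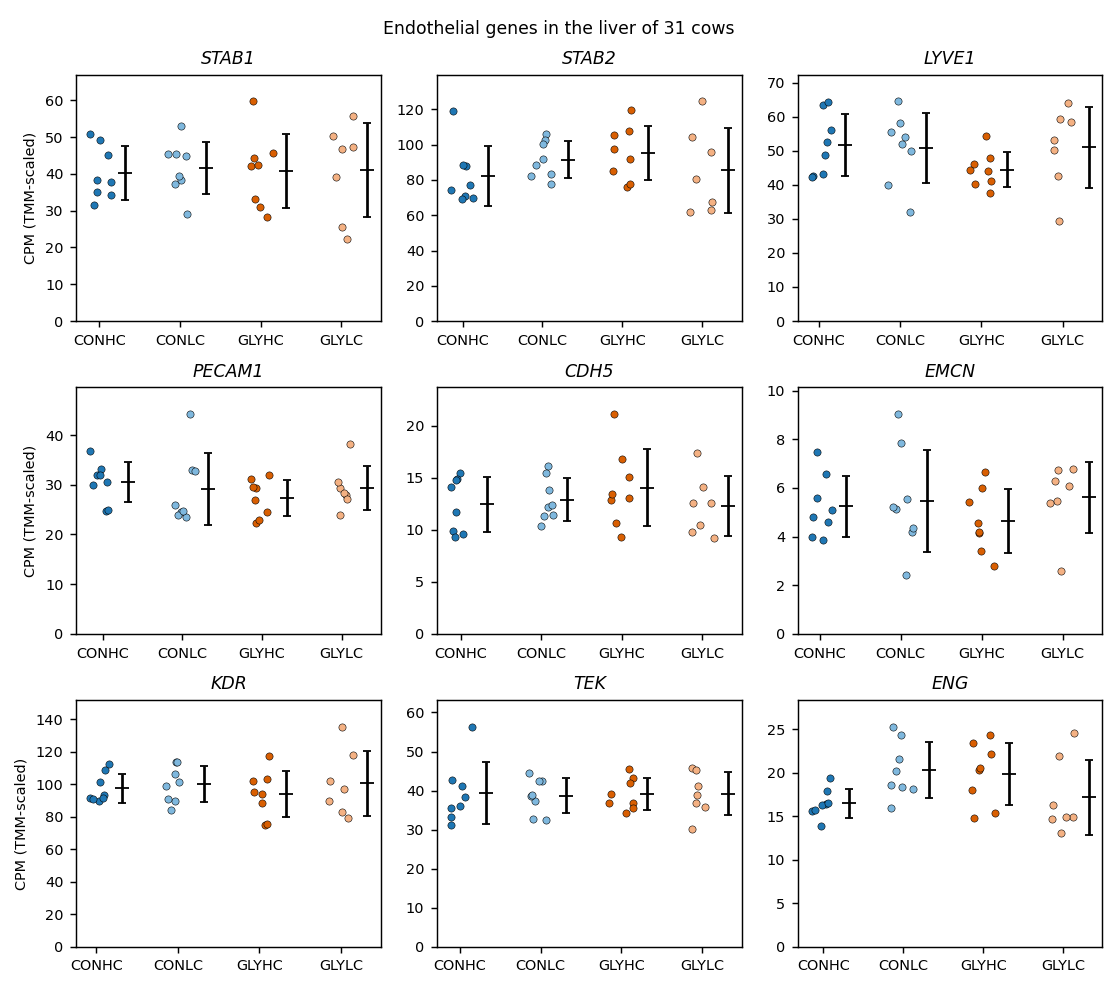
Level of each of the 9 endothelial genes in the liver (CPM scaled by TMM factors, linear axes from 0) by feeding group, with 1 point per cow (8, 8, 8 and 7 cows) and the mean ± SD of the group as a bar beside the points. The ranges of the cows overlap between all groups for every gene.

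The scavenger receptors of the sinusoids were the first set. *STAB1* (ENSBTAG00000014782) encodes stabilin-1, a large receptor for modified lipoproteins and matrix fragments that macrophages carry as well. Its level ran from 31.5 to 50.9 CPM in CONHC (median 38.0), from 29.2 to 53.0 in CONLC (median 42.2), from 28.3 to 59.9 in GLYHC (median 42.3) and from 22.2 to 55.8 in GLYLC (median 46.7). The group means were 40.3 ± 7.22 (SD, n = 8), 41.6 ± 7.15 (n = 8), 40.9 ± 10.1 (n = 8) and 41.0 ± 12.7 CPM (n = 7), and no neighbours in their order differed beyond their spread. GLYLC, the group with the widest range, held the lowest cow of all 31 and the next to highest.

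*STAB2* (ENSBTAG00000006010) encodes stabilin-2, the main receptor by which sinusoids take up hyaluronan from the blood. Its level ran from 69.4 to 119 CPM in CONHC (median 75.7), from 77.6 to 106 in CONLC (median 90.01), from 76.3 to 119 in GLYHC (median 94.7) and from 61.6 to 125 in GLYLC (median 80.8). The means were 82.1 ± 16.9 (SD, n = 8), 91.5 ± 10.4 (n = 8), 95.2 ± 15.3 (n = 8) and 85.5 ± 24.0 CPM (n = 7). GLYHC thus had the highest mean and CONHC the lowest, with overlapping cows throughout.

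*LYVE1* (ENSBTAG00000000802) encodes a hyaluronan receptor of lymphatic vessels that the endothelium of liver sinusoids shares. Its level ran from 42.3 to 64.3 CPM in CONHC (median 50.7), from 32.1 to 64.6 in CONLC (median 53.1), from 37.7 to 54.4 in GLYHC (median 44.2) and from 29.3 to 64.0 in GLYLC (median 53.2). GLYHC had the lowest mean, 44.4 ± 5.18 CPM (SD, n = 8), and the other groups had 51.6 ± 9.04 (n = 8, CONHC), 50.8 ± 10.4 (n = 8, CONLC) and 51.0 ± 11.9 CPM (n = 7, GLYLC). The step of 6.38 CPM from CONLC to GLYHC was larger than the SD of GLYHC and smaller than that of CONLC. GLYHC differed from CONHC by -0.22 on the log2 scale (SE 0.14, edgeR unadjusted p = 0.121, adjusted p = 1), which is within the spread of the cows.

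Genes of endothelial junctions and surface glycoproteins formed the second set. *PECAM1* (ENSBTAG00000012066) encodes CD31, an adhesion molecule at contacts between endothelial cells that platelets and leukocytes carry too. It ran from 24.7 to 36.8 CPM in CONHC (median 31.3), from 23.6 to 44.3 in CONLC (median 25.3), from 22.3 to 31.9 in GLYHC (median 28.2) and from 23.8 to 38.1 in GLYLC (median 28.3). CONLC had the lowest median but, through cow 166, also the highest value of all 31 cows.

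*CDH5* (ENSBTAG00000007421) encodes VE-cadherin, the cadherin that holds endothelial cells together. It ran from 9.31 to 15.5 CPM in CONHC (median 12.9), from 10.3 to 16.1 in CONLC (median 12.3), from 9.30 to 21.1 in GLYHC (median 13.2) and from 9.20 to 17.4 in GLYLC (median 12.6). *EMCN* (ENSBTAG00000034206) encodes endomucin, a mucin-like glycoprotein of venous and capillary endothelium, and was the member with the fewest reads. It ran from 3.85 to 7.48 CPM in CONHC (median 4.96), from 2.42 to 9.04 in CONLC (median 5.17), from 2.78 to 6.65 in GLYHC (median 4.37) and from 2.57 to 6.79 in GLYLC (median 6.06). Both the lowest and the highest cow for *EMCN* were in CONLC.

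Receptors for growth factors made up the third set. *KDR* (ENSBTAG00000000782) encodes VEGFR2, the main signalling receptor for VEGF-A on endothelium. It ran from 90.04 to 113 CPM in CONHC (median 92.8), from 84.4 to 114 in CONLC (median 100.2), from 75.3 to 118 in GLYHC (median 94.7) and from 79.5 to 136 in GLYLC (median 97.1). *TEK* (ENSBTAG00000020148) encodes TIE2, the receptor for angiopoietins. It ran from 31.2 to 56.4 CPM in CONHC (median 37.3), from 32.5 to 44.4 in CONLC (median 38.8), from 34.3 to 45.6 in GLYHC (median 38.0) and from 30.2 to 45.9 in GLYLC (median 38.9). The 4 group means of *TEK* were the closest of the 9 genes, from 38.7 ± 4.45 (SD, n = 8, CONLC) to 39.3 ± 7.87 CPM (n = 8, CONHC).

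*ENG* (ENSBTAG00000008997) encodes endoglin, a co-receptor for BMP9, BMP10 and TGF-beta on endothelium. It ran from 13.9 to 19.4 CPM in CONHC (median 16.3), from 15.99 to 25.3 in CONLC (median 19.4), from 14.8 to 24.3 in GLYHC (median 20.4) and from 13.1 to 24.6 in GLYLC (median 14.9). CONLC (20.3 ± 3.23 CPM, SD, n = 8) and GLYHC (19.9 ± 3.54, n = 8) thus had higher means than CONHC (16.5 ± 1.65, n = 8) and GLYLC (17.2 ± 4.31, n = 7), and the ranges of all 4 groups overlapped. In GLYLC, 2 of the 7 cows were above 20 CPM (21.9 in cow 42 and 24.6 in cow 544) and the other cows lay between 13.1 and 16.3.

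To ask whether the concentrate feed proportion went along with endothelial transcripts, HC groups were compared with LC groups over all cows with treatment as a covariate. The log2 fold changes of the 9 genes lay between -0.17 (*EMCN*, SE 0.15, adjusted p = 0.694) and 0.07 (*CDH5*, SE 0.11, adjusted p = 0.861), with a median of -0.03. The median over all 15916 genes tested was -0.01. With edgeR's quasi-likelihood F test and Benjamini-Hochberg adjustment, 0 of 9 were called and 0 of 9 had an unadjusted p under 0.05, beside 1.45% and 13.7% of all genes tested. DESeq2 on all cows also called 0. The 95% intervals bound the differences these data allow. For *TEK* the interval ran from -8.86% to 11.7% and for *KDR* from -13.7% to 5.79%, while for *EMCN* it ran from -28.3% to 10.7% and for *CDH5* from -10.3% to 22.2%.

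Within the treatments the same comparison was made in fewer cows. Between CONHC and CONLC 0 of 9 genes were called (0% of all genes tested) and 1 of 9 had an unadjusted p under 0.05 (5.96% of all genes). This gene was *ENG*, with a log2 fold change of -0.30 (SE 0.12, 95% interval -0.56 to -0.05, unadjusted p = 0.0202, edgeR adjusted p = 0.760). The other 8 log2 fold changes lay between -0.16 (*STAB2*) and 0.07 (*PECAM1*). Between GLYHC and GLYLC 0 of 9 were called and 0 of 9 had an unadjusted p under 0.05, beside 0.201% and 12.5% of all genes. The values ran from -0.28 (*EMCN*, SE 0.22) to 0.21 (*ENG*, SE 0.13, edgeR adjusted p = 0.522).

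Glyphosate exposure was compared in the same way. In GLY versus CON over all cows with CFP as a covariate, the log2 fold changes lay between -0.11 (*LYVE1*, SE 0.10) and 0.06 (*STAB2*, SE 0.10), with a median of 0.0008. Here 0 of 9 genes were called and 0 of 9 had an unadjusted p under 0.05, beside 0% and 3.92% of all genes tested (edgeR), and DESeq2 called 0. The intervals reached from -23.6% to 18.03% for *EMCN* and from -9.37% to 11.1% for *TEK*. Between GLYHC and CONHC 0 of 9 were called (0% of all genes) and 1 of 9, again *ENG*, had an unadjusted p under 0.05 (2.92% of all genes). Its log2 fold change was 0.27 (SE 0.12, 95% interval 0.02 to 0.52, unadjusted p = 0.0381, edgeR adjusted p = 1). Between GLYLC and CONLC 0 of 9 were called and 0 of 9 had an unadjusted p under 0.05, beside 0.0628% and 5.65% of all genes, and *ENG* had a log2 fold change of -0.24 (SE 0.13, unadjusted p = 0.0682, edgeR adjusted p = 0.931). These pairwise comparisons share groups, so that the *ENG* values of CONHC enter both comparisons with an unadjusted p under 0.05.

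The interaction of GLY with CFP asks whether the HC versus LC difference was the same in GLY and CON cows. None of the 9 genes was called (0% of all genes tested, edgeR; DESeq2 0) and 1 of 9 had an unadjusted p under 0.05 (4.21% of all genes). For *ENG* the differences of HC and LC cows, -0.30 in CON and 0.21 in GLY, were 0.51 apart on the log2 scale (SE 0.18, 95% interval 0.15 to 0.87, unadjusted p = 0.00744, edgeR adjusted p = 0.999). This value does not pass the correction over all genes. It kept an unadjusted p under 0.05 without each of the 31 cows in turn (0.46 to 0.62). Such fits reuse the same cows, so they show that the value did not rest on 1 cow but do not bear on the correction over genes. In CONHC versus CONLC the unadjusted p rose to 0.0534 without CONLC cow 103, the only cow with this effect. The interaction values of *STAB2* and *CDH5* were 0.31 (SE 0.19, unadjusted p = 0.118) and 0.24 (SE 0.22, unadjusted p = 0.285), and those of *LYVE1*, *EMCN* and *PECAM1* were -0.22, -0.22 and -0.17 (edgeR adjusted p = 0.999 each).

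**Figure D2:**
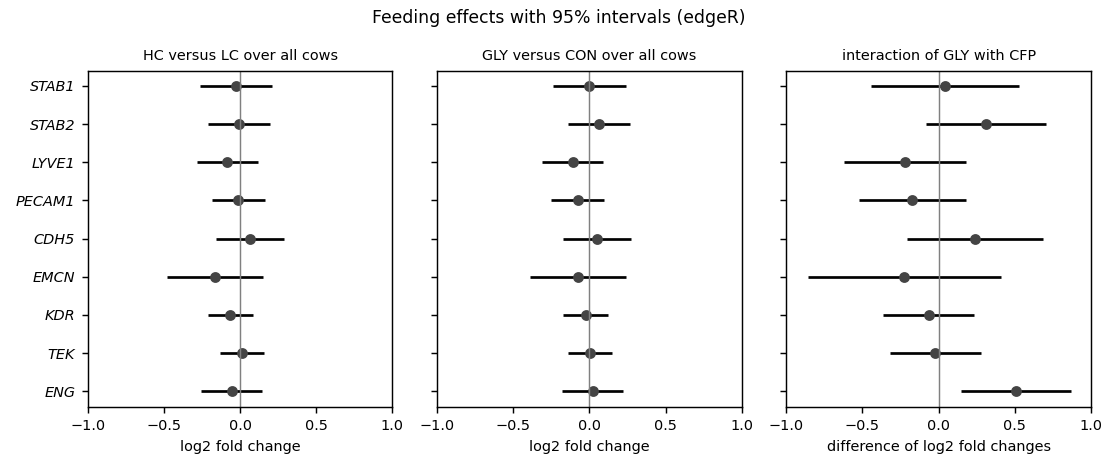
Log2 fold changes of the 9 endothelial genes (edgeR, points) with 95% intervals (lines) for HC versus LC over all cows, GLY versus CON over all cows and the interaction of GLY with CFP, on a common linear axis. All intervals include 0 except that of ENG in the interaction (0.15 to 0.87), which was not called after adjustment.

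While groups differed little, cows differed from each other, and the endothelial genes tended to be high or low together in a cow. The summed level of the 9 genes ran from 285.0 CPM in GLYLC cow 147 to 506.7 CPM in GLYLC cow 544. By group it was 375.7 ± 43.6 (SD, n = 8) in CONHC, 390.4 ± 47.6 (n = 8) in CONLC, 379.6 ± 50.8 (n = 8) in GLYHC and 381.8 ± 73.1 CPM (n = 7) in GLYLC. In 6 cows, found in all 4 groups, 8 or 9 of the 9 genes were above their median over the cows, and in 6 further cows, again from all 4 groups, at most 1 gene was. CONHC cow 7 and GLYLC cow 544 had all 9 genes above the median and GLYLC cow 147 had none. Between log2 assigned reads and the mean of the scaled members r was -0.09 and rho -0.09 over the 31 cows, given as a description.

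All 36 pairs of the 9 genes had a positive Pearson r of log2 CPM over the 31 cows, with a median of 0.39. After Benjamini-Hochberg adjustment over the 36 pairs, 17 had a permutation p under 0.05 (100000 permutations, two-sided), and 18 by Spearman's rho. With the group means removed 20 pairs passed and the median r was 0.47, and without the 2 cows farthest from the median of the first gene 14 pairs passed. All pairs are measured in the same libraries and scaled by the same factors.

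*STAB2*, *ENG*, *CDH5* and *KDR* had r of 0.56 to 0.79 with each other. The highest r was between the hyaluronan receptor *STAB2* and the co-receptor *ENG* (r = 0.79, rho = 0.80, permutation p = 1e-05 for both, which is the smallest the permutations can give, adjusted p = 0.00012), and it was 0.79 without the 2 farthest cows and 0.77 within groups. *STAB2* with *KDR* gave r = 0.73 (rho = 0.73, permutation p = 1e-05, adjusted p = 0.00012; 0.69 without the 2 farthest cows). For *STAB2* with *CDH5* it was 0.72 (rho = 0.68, permutation p = 2e-05, adjusted p = 0.000144; 0.67 without the 2 farthest). *LYVE1* followed *KDR* (r = 0.70, rho = 0.72, permutation p = 2e-05, adjusted p = 0.000144; 0.73 without the 2 farthest), and *PECAM1* followed *EMCN* (r = 0.64, rho = 0.61, permutation p = 0.00014, adjusted p = 0.00084; 0.57 without the 2 farthest). *STAB1* and *TEK* formed the pair with the lowest r (0.08, rho = 0.26, permutation p = 0.678, adjusted p = 0.678; 0.19 without the 2 farthest). *STAB1* and *STAB2*, the related stabilins, had r = 0.38 (rho = 0.39, permutation p = 0.0349, adjusted p = 0.0618; 0.41 without the 2 farthest), which did not pass the correction.

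**Figure D3:**
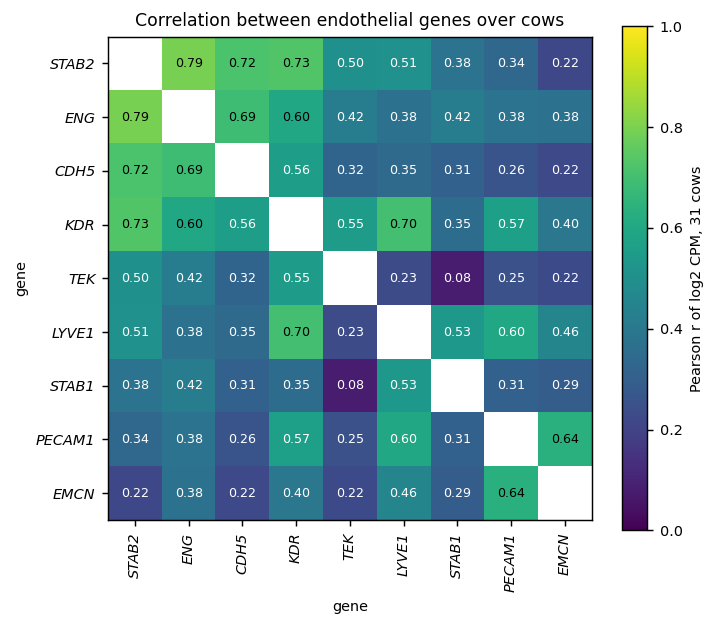
Pearson r of log2 CPM (prior count 2) over 31 cows for each of the 36 pairs of endothelial genes, with genes on both axes, the value printed in each cell and colour from 0 to 1. All pairs are positive, from 0.08 (STAB1 with TEK) to 0.79 (STAB2 with ENG).

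Against the mean of the other 8 members, *KDR* (r = 0.81), *STAB2* (0.75) and *ENG* (0.73) had the highest r, and *EMCN* (0.49), *STAB1* (0.46) and *TEK* (0.44) the lowest, given as a description over 31 cows. The spread between cows of a group was also unequal. The biological coefficient of variation from edgeR was 29.3% for *EMCN*, 23.5% for *STAB1* and 21.2% for *CDH5*, beside medians of 19.8%, 15.2% and 15.8% for genes of a like level (within 0.5 on the log2 CPM scale). For *KDR* (15.4% beside 16.8%) and *TEK* (15.0% beside 15.3%) it was at or just below such genes. For the remaining genes it was 19.6% (*STAB2*, beside 16.4%), 19.7% (*LYVE1*, beside 15.0%), 17.2% (*PECAM1*, beside 15.1%) and 17.6% (*ENG*, beside 15.2%).

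Genes outside the members that carry a symbol and had a mean of at least 1 CPM were ranked by their likeness. Those most like the mean of the members over the 31 cows were *ARAP3* (r = 0.87), *COL14A1* (0.79), *SLC44A2* (0.76), *FLT4* (0.76) and *PPP1R16B* (0.75). The gene most like a single member was *SHANK3* for *STAB1* (0.85), *COL14A1* for *STAB2* (0.82) and *ENG* (0.71), *CLEC1B* for *LYVE1* (0.77), *GJA5* for *PECAM1* (0.73) and *EMCN* (0.72), *PIK3CD* for *CDH5* (0.84), *FYN* for *KDR* (0.84) and *MGC139164* for *TEK* (0.74). These are the highest of many values and are given as a description. *FLT4*, which encodes VEGFR3, and *CLEC1B*, a C-type lectin receptor, also stand in the lists of VEGF receptors and of sinusoidal genes used here.

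Most other endothelial genes had a positive r with the members over the cows. The lists were here limited to genes with a mean of at least 1 CPM. For the genes of endothelium in general below this level, r ran from -0.09 (*SELE*) to 0.28 (*MMRN1*). The median r with the mean of the members was 0.50 over 17 other sinusoidal genes (15 positive), among them *CLEC1B* (0.67), *GPR182* (0.67), *CLEC4G* (0.61) and *DNASE1L3* (0.61). It was 0.47 over 20 other endothelial genes (20 positive), with *VWF*, the carrier of coagulation factor VIII, at 0.65. The medians were 0.51 over 7 VEGF genes (*FLT1* 0.68), 0.51 over 3 genes of the TIE pathway (*TIE1* 0.51), 0.28 over 6 Notch genes, 0.21 over 3 hyaluronan genes and 0.04 over 16 genes around endoglin. Over all 11826 genes outside the members with a mean of at least 1 CPM, with or without a symbol, the median was -0.03, with 5347 positive.

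Some markers of other cells with a mean of at least 1 CPM had a positive r too. The median r with the mean of the members was 0.59 over 5 markers of lymphocytes and other leukocytes (5 positive, *NKG7* 0.65, *CD2* 0.60, *CD3E* 0.59), and 0.34 over 12 markers of Kupffer cells and macrophages (12 positive, 0.17 to 0.48). It was 0.12 over 12 stellate cell markers, 0.10 over 5 smooth muscle markers, 0.21 over 4 bile duct markers, 0.32 over 2 platelet markers and -0.10 over 10 hepatocyte markers (3 positive). The sum of the 8 leukocyte markers ran from 36.0 to 72.2 CPM in CONHC, from 33.4 to 77.4 in CONLC, from 37.7 to 100.1 in GLYHC and from 34.3 to 76.8 in GLYLC, with *CD79B* under 0.5 CPM at the median. The part of leukocytes and macrophages in the joint variation of the members was not tested.

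Of the other genes known from the sinusoidal endothelium, 1 of 19, *PLXNC1*, was called in HC versus LC over all cows, beside 1.45% of all genes tested. An unadjusted p under 0.05 was found for 2 higher and 1 lower gene, beside 13.7% of all genes tested (edgeR). Nothing particular to the list is read from these counts. *PLXNC1*, the receptor for semaphorin 7A, which leukocytes express as well, had 3.50 to 7.87 CPM in CONHC (median 5.27) and 3.83 to 6.79 in GLYHC (median 5.38). In CONLC it had 2.76 to 5.32 CPM (median 3.46) and in GLYLC 2.88 to 5.40 (median 3.62). The HC groups lay higher than the LC groups, with overlapping cows. *PLXNC1* rose by 0.51 on the log2 scale (SE 0.12, edgeR adjusted p = 0.0428) and was called without each of the 31 cows in turn (0.46 to 0.56), cow 912 included. It was not called within CON (0.51, SE 0.16, edgeR adjusted p = 0.581) or GLY (0.51, SE 0.17, edgeR adjusted p = 0.211). Its r with the mean of the members was 0.35. The sum of 12 Kupffer cell and macrophage markers, all read in every cow, was also higher in the HC groups at the median, with 606 to 1652 CPM in CONHC (median 1174), 750.3 to 1379 in CONLC (median 948), 701 to 1774 in GLYHC (median 1176) and 734 to 1376 in GLYLC (median 877). Its part in the *PLXNC1* result was not tested. Not called were *MRC1*, the mannose receptor (0.20, SE 0.09, edgeR adjusted p = 0.297), and *RSPO3*, which encodes a Wnt-enhancing factor of central vein endothelium (-0.29, SE 0.13, edgeR adjusted p = 0.327). The median over the 19 genes was 0.00.

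Among 28 genes of endothelium in general, 0 were called in HC versus LC by edgeR, 2 had an unadjusted p under 0.05 (13.7% of all genes tested), and DESeq2 on all cows called 1 of them lower. The smallest p belonged to *GATA2*, a transcription factor gene of blood and endothelial cells (-0.94, SE 0.31, edgeR adjusted p = 0.148), and was followed by *MMRN1* (-0.98, SE 0.47, edgeR adjusted p = 0.356) and *CLDN11* (-0.63, SE 0.31, edgeR adjusted p = 0.371). All 3 were under 0.5 CPM at the median over the cows. Without GLYLC cow 912 the value of *MMRN1* was -0.53. The median over the 28 genes was 0.00.

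The pathways of the 3 receptors were read from their ligands and partners in HC versus LC, where the unadjusted p was under 0.05 for 13.7% of all genes tested and the calls made up 1.45%. The counts in these lists of 6 to 17 genes are given beside these shares, and nothing particular to a list is read from them. Of 8 genes of VEGF ligands and receptors, 0 were called (1 with an unadjusted p under 0.05, DESeq2 0), with a median of -0.11. *VEGFA*, the ligand of *KDR*, had a log2 fold change of -0.12 (SE 0.05, edgeR adjusted p = 0.293), the co-receptor *NRP2* 0.22 (SE 0.14, adjusted p = 0.507) and the ligand *PGF* -0.73 (SE 0.61, adjusted p = 0.655). Of 6 genes around *TEK*, 0 were called (0 with an unadjusted p under 0.05, DESeq2 0), with a median of -0.15. These included the phosphatase gene *PTPRB* (-0.13, SE 0.10, edgeR adjusted p = 0.595), the ligand *ANGPT4* (-0.53, SE 0.42, adjusted p = 0.629) and *TIE1* (0.10, SE 0.09, adjusted p = 0.680). Some of these values moved when a single cow was left out, without a change of sign. *PGF* was -0.33 without GLYLC cow 544 and -1.13 without GLYHC cow 154, *ANGPT4* was -0.26 without CONLC cow 166, and *TIE1* was 0.16 without GLYLC cow 544 and 0.07 without GLYLC cow 147.

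Of 17 genes around *ENG* (its ligands, receptors, SMADs and ID targets), 0 were called and 3 had an unadjusted p under 0.05 (DESeq2 0), with a median of 0.05. *GDF2*, which encodes BMP9 and is made in the liver, had -0.28 (SE 0.11, edgeR adjusted p = 0.212), *TGFB3* -0.74 (SE 0.27, adjusted p = 0.197) and the target *ID2* 0.16 (SE 0.07, adjusted p = 0.312). With a cow left out *TGFB3* ran from -0.83 to -0.51, and in CONLC it reached 3.63 CPM beside a median of 0.93. Of 9 genes of the Notch pathway, which sets arterial identity, 0 were called and 2 had an unadjusted p under 0.05 (DESeq2 0). These were *HES1* (0.27, SE 0.13, edgeR adjusted p = 0.351) and *JAG1* (-0.14, SE 0.07, adjusted p = 0.353), and *HEY2* had -0.34 (SE 0.21, adjusted p = 0.496). Of 6 genes that make, degrade or bind hyaluronan, the ligand of *STAB2* and *LYVE1*, 0 were called and 1 had an unadjusted p under 0.05 (DESeq2 0). This was the receptor *CD44* (0.32, SE 0.13, edgeR adjusted p = 0.261), while *HYAL1* had -0.19 (SE 0.13, adjusted p = 0.549) and *HAS2* -0.56 (SE 0.57, adjusted p = 0.733, and -0.85 without CONHC cow 133).

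**Figure D4:**
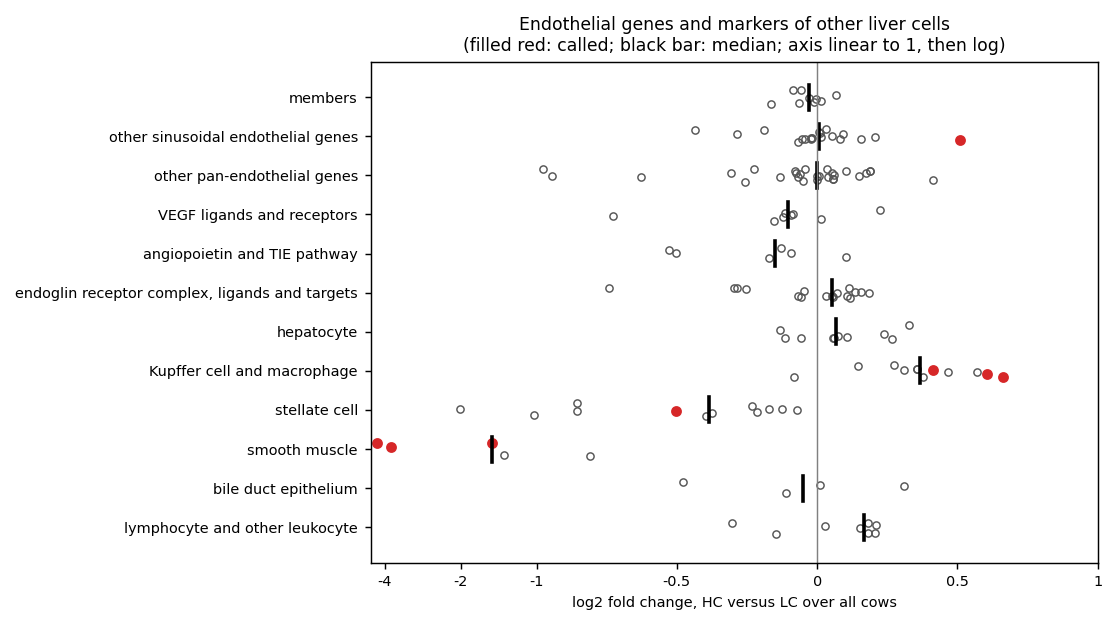
Log2 fold change in HC versus LC over all cows (edgeR, horizontal axis, linear up to 1 and logarithmic beyond) for each gene of the endothelial lists and of the marker lists of other liver cells (rows). Red points are called and open points are not. Black bars are list medians, which lie near 0 for the members and the other endothelial genes. They are at 0.37 for Kupffer cell markers, -0.39 for stellate cell markers and -1.50 for smooth muscle markers. Without GLYLC cow 912 no Kupffer cell marker was called, and of the smooth muscle markers only MYH11 was.

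Marker lists of cells that neighbour the endothelium held genes that were called in HC versus LC. Of 12 Kupffer cell and macrophage markers, 3 were called higher (*CD68* 0.61, *ADGRE1* 0.66 and *CD5L* 0.41, edgeR adjusted p = 0.0948, 0.0738 and 0.0860) and 9 had an unadjusted p under 0.05, beside 1.45% and 13.7% of all genes tested, with a median of 0.37. DESeq2 on all cows called 4 of the 12 higher. Without GLYLC cow 912 0 of the 12 were called by edgeR and the median was 0.32. The values of *CD68*, *ADGRE1* and *CD5L* were then 0.55, 0.60 and 0.37. Of 12 stellate cell markers, 1 was called lower (*DCN* -0.50, edgeR adjusted p = 0.0275, and -0.51 without cow 912), and the median was -0.39. An unadjusted p under 0.05 was found for 6 of the 12, all of them lower, and for all 5 smooth muscle markers, also lower. Among the 6, *COL1A1* (-2.01) reached 434 CPM in 1 cow of CONLC beside a median of 6.59 in that group. Its value ran from -2.14 to -0.67 with a cow left out. Of 5 smooth muscle markers, 3 were called lower, *TAGLN* (-1.50, edgeR adjusted p = 0.0948), *CNN1* (-3.76, adjusted p = 0.0468) and *ACTG2* (-4.29, adjusted p = 0.0698). Without cow 912 these had -0.77, -1.17 and -0.82 and were not called, and *MYH11* was called instead (-0.48, edgeR adjusted p = 0.0568). No marker of hepatocytes (10), bile duct (4), leukocytes (8), platelets (4) or red cells (2) was called by edgeR, where 2 hepatocyte markers had an unadjusted p under 0.05, or by DESeq2.

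GLYLC cow 912 stood apart in its intestinal markers, whose sum was 319 CPM in this cow and at most 2.05 CPM in any other, and in smooth muscle markers, whose sum was 1465 CPM beside at most 209. Its sum of hepatocyte markers, 113811 CPM, was the lowest of the 31 cows. *ALB* (42900 CPM beside a median of 106927) was lowest in this cow, while *FGB* (42252 CPM) and *APOA1* (714 CPM) were highest. The sum of the genes around *ENG* was also highest in it (342 CPM beside at most 313). Of 5 intestinal markers tested, 4 were called lower in HC versus LC by edgeR (*FABP2* -9.14, *MUC13* -7.13, *BCO1* -6.84 and *OLFM4* -5.19, adjusted p = 0.0275, 0.0307, 0.0451 and 0.0451) and 0 by DESeq2 on all cows. Without cow 912 these 4 had too few reads to be tested. For the endothelial genes it lay within the range of the other cows, except for *STAB2* (61.6 beside 62.8 CPM in the next lowest cow) and *TEK* (30.2 beside 31.2), where it was the lowest of the 31. Without this cow 0 of the 9 members were called in each of the 7 comparisons.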

How the data were processed

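Per the labels and the study's methods, RNA of liver biopsies was made into stranded mRNA libraries. The submitters' processing notes name FastQC, Trim Galore, HISAT2 2.1.0, HTSeq 0.8.0, DESeq2 1.20.0 and UMD3.1. The authors deposited raw counts of uniquely mapped reads per gene, used here, and a normalized table, which was not used. How the counting treated strand is not given in the sources used here, so reads of genes that overlap on opposite strands may be mixed. The labels name no batch. Genes with at least 20 reads over all cows (15916) were tested with edgeR 4.0.16 in R 4.3.3 (TMM factors, quasi-likelihood F test) in a model of the 4 groups, and in additive models for HC versus LC and GLY versus CON. Calls required p under 0.05 before and under 0.1 after Benjamini-Hochberg adjustment over all genes tested. The edgeR p-values weigh differences between groups against the spread between cows, and those of the correlations come from permutations of the cows. SE values follow from the F statistic. Correlations used log2 CPM with a prior count of 2. As alternatives, normalization was by RLE or upper quartile, the filter was dropped or replaced by filterByExpr (minimum 10 reads), log2 assigned reads were a covariate, adjusted p had to be under 0.05, the fit held just the compared groups, DESeq2 1.42.0 replaced edgeR, and each cow was left out. The steps were tested on simulated counts.

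The members and lists were chosen with earlier results of these data known. Named were all members, of each other endothelial or pathway list the called genes and, where fewer than 3 were called, those with the smallest p in HC versus LC up to 3, the gene most like each member and the 5 most like their mean. Markers of other cells were given as sums, counts and called genes. Genes given as examples of likeness within a list, *COL1A1*, the single hepatocyte markers of cow 912 and *MYH11* without cow 912 were chosen after their values were seen. Sequences and coordinates were not used here, since the reference names come from another assembly (ARS-UCD2.0).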

Additional observations from a re-analysis of the deposited data

Results flagged for a closer look

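In 4 of the 36 sets of a member and a feeding group, 1 cow lay far from the others of its group by Dixon's test at the 95% level, which flags about 1 in 20 sets by chance. *STAB2* in CONHC was 119 CPM in cow 7, and the next cow had 88.6. *PECAM1* in CONLC was 44.3 CPM in cow 166 and 33.0 in the next. *TEK* in CONHC was 56.4 CPM in cow 134 and 42.7 in the next. *EMCN* in GLYLC was 2.57 CPM in cow 147, the lowest of its group, and the next lowest cow had 5.37. Cows 7 and 147 were high and low in the other members as well, with 9 and 0 of the 9 genes above the median over the cows, cow 166 had 8 and cow 134 had 1.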

How the results depend on the processing

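No member was called in any of the 7 comparisons under the settings run, which were each of the 31 cows left out and 9 alternatives for the 4 pairwise comparisons or 7 for the other 3. Among these alternatives, the threshold of adjusted p under 0.05 reuses the main fit and can neither move a value nor add a call. Of the 63 values of a member in a comparison, 27 changed sign in some setting, all of them at most 0.06 in size on the log2 scale. The largest shift was 0.05 under the alternatives and 0.15 with a cow left out. The median of the members in HC versus LC ran from -0.08 to -0.00028 and in GLY versus CON from -0.05 to 0.02. The *ENG* interaction had an unadjusted p between 0.00606 and 0.00873 under 7 alternatives, which include the main fit at the stricter threshold. *ENG* in GLYHC versus CONHC kept its unadjusted p under 0.05 without 24 of the 31 cows in turn, and it was 0.0905 without GLYHC cow 131. The settings of the other lists' genes in HC versus LC were added after the data were seen. *PLXNC1* and *DCN* were called in all of them, *CD68* in 9, *ADGRE1* in 20 and *CD5L* in 12 of 31 fits with a cow left out. With DESeq2 on all cows *BCO1* (0.97), *MUC13* (0.042) and *FABP2* (0.80) turned direction from -6.84, -7.13 and -9.14, and the cause was not tested. No paired analysis was possible because each cow is in 1 feeding group and the groups share no animal numbers. About 50 to 230 reads per cow limit the precision for *EMCN*.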
